A study of Gorilla gorilla gorilla with 14 samples.

Results

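Neurons (N) were compared with basal radial glia (bRG). Both were flow sorted from cerebral organoids of gorilla cells, cultured to week 8, and profiled by bulk ATAC-seq, an assay in which a transposase cuts accessible DNA and tags it for sequencing. The comparison rests on the 4 N libraries and the 2 bRG libraries, which makes 6 of the 14 libraries of the study. The labels call the N cells BCL11B+ neurons, and all cells came from 1 induced pluripotent stem cell line, GC1, so donor differences were not sampled. N replicates 1 and 2 belong to a first run of consecutive library numbers, and N replicates 3 and 4 and both bRG libraries to a second run. The runs are treated as a first and a second library series. The other 8 libraries, of basal intermediate progenitors (bIP, n = 5) and apical radial glia (aRG, n = 3), also entered the fit. They help set the spread between libraries and a term for the library series. As bRG lies in the second series only, that term enters every N minus bRG fold change. The labels name no separate cultures for libraries of a group, so every p-value rests on a spread between libraries that may be purely technical.

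Basal radial glia are neural stem cells of the outer subventricular zone that have left the ventricular surface and keep a process towards the pia. In the developing neocortex they divide to give more radial glia, intermediate progenitors or neurons. Their daughters silence genes of the SOX2 and HES1 programme and turn on genes for axons, ion channels and synapses, so the comparison spans the course from a dividing stem cell to a postmitotic neuron. Accessible promoters and distal elements mark where regulatory proteins can reach DNA, and accessibility is not a measure of transcription. In bulk material a lower value in a mixed sort cannot be told apart from a lower value in each cell.

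Each library was counted over 204249 regions of a median 858 bp that have a position in the gorilla genome build gorGor6, and all coordinates below are from that build. The N libraries held 24207798, 14416471, 16918366 and 23328279 counts and the bRG libraries 19685454 and 20288348. The 2 bRG libraries correlated at 0.972 over regions, the pairs of N libraries at 0.866 to 0.954, and N with bRG libraries at 0.49 to 0.634 (Pearson, log2 scale). No pair of libraries within a cell type agreed to within sampling noise, with chi-square per degree of freedom of 3.22 to 11 among N pairs and 1.44 for the bRG pair. N replicate 3 had the flattest profile, with 5.06% of its counts in the 1000 strongest regions, against 5.88% to 7.65% in the other N libraries and 6.53% and 6.37% in the bRG libraries. Its part in the results was not tested beyond the values given without it.

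Most of the tested regions passed the threshold between the cell types in the fit reported. Of 200931 regions tested, 116654 (58.1%) passed an adjusted p of 0.05 in edgeR's quasi-likelihood test, with 64754 (32.2%) higher and 51900 (25.8%) lower in N. Changes were large: 32800 regions were at least 4-fold higher and 17605 at least 4-fold lower in N, and 13534 and 4663 passed 8-fold. Leaving out any 1 of the 6 libraries kept 72.8% of the higher and 73.4% of the lower regions in every such fit. In the second library series alone, which holds both cell types, 91.0% of the higher and 85.7% of the lower regions passed again. With replicate numbers added to the fit as a block, 44832 regions passed, which is no longer most of them.

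The shares of regions that were higher or lower in N varied with the distance to the gene. A promoter region is one listed at most 1000 bp from its gene, a distance taken as that to the transcription start. Of 20510 promoter regions tested, 7865 (38.3%) passed, with 3399 (16.6%) higher and 4466 (21.8%) lower in N, and scaling each library by a loess curve over region strength gave 7074 higher and 4780 lower instead. Of 133466 regions more than 10000 bp away, 81543 (61.1%) passed, with 46548 (34.9%) higher and 34995 (26.2%) lower. Among regions that overlap a gene's start, 11.8% were higher and 20.1% lower in N, whereas over 100000 bp away 36.5% were higher and 25.9% lower. The median log2 fold change, N minus bRG, was 0.12 over all regions and -0.06 over promoter regions, so small changes in gene lists are read against these values. Promoters of genes not matched as protein-coding, 9206 with 1 per gene, passed at 48.2%, with 2143 (23.3%) higher and 2291 (24.9%) lower in N. The loess scaling put the promoter median at 0.11, and leaving out the filter on low counts put the median of all regions at -0.03. A fit of the N and bRG libraries alone put the promoter median at -0.31.

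**Figure D1:**
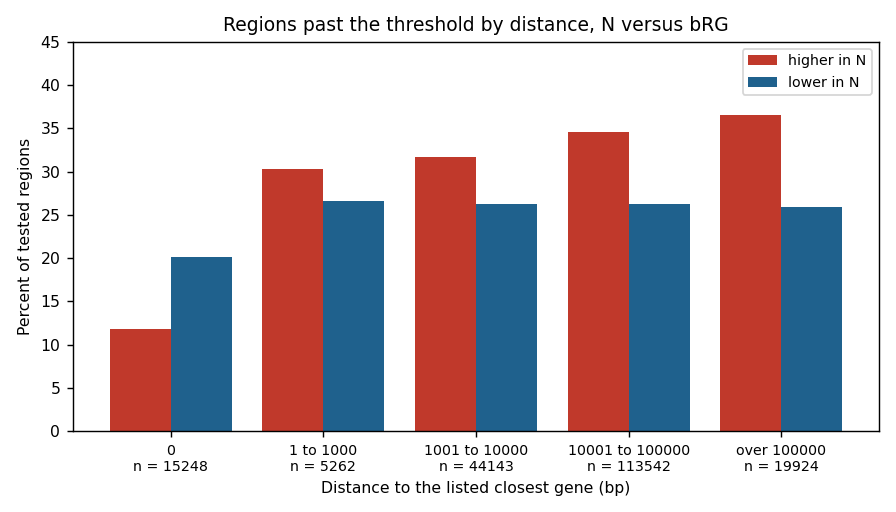
Percent of tested regions past an adjusted p of 0.05 (y axis), higher in N (red) and lower in N (blue), by distance to the listed closest gene in bp (x axis, with the number of regions tested). Lower calls outnumber higher calls only at a distance of 0 bp, with 20.1% against 11.8%, and the share of higher calls is 36.5% beyond 100000 bp.

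The deposited peak sets, 1 consensus set per cell type, were set beside the counts. N had 152224 peaks and bRG 179137, and 63.8% of the N peaks (95% Wilson interval 63.5% to 64.0%) and 62.6% of the bRG peaks (62.4% to 62.8%) were touched by a peak of the other set. Of tested regions at least 4-fold higher in N, 65.8% lay under an N peak only and 0.0267% under a bRG peak only. Of regions at least 4-fold lower in N, 0.0124% lay under an N peak only and 77.6% under a bRG peak only. The sets were made from the same cell types as the counts, so they are no independent measurement, and chromosomes 2A and 2B, which have no peaks in these sets, were left out.

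The labelled cell types were checked by their marker promoters. Among neuronal markers, NEUROD2, a bHLH activator of cortical excitatory neurons, had 40.7, 44.2, 25.0 and 44.6 CPM (counts scaled to the library's effective size, its total in tested regions times its TMM factor) in N and 5.81 and 4.83 CPM in bRG, a log2 fold change of 3.09 ± 0.34 (SE; adjusted p = 3.4e-08). STMN2, a tubulin-binding stathmin of growing axons, was higher by 2.48 ± 0.25 (adjusted p = 1e-08), NEUROD6 by 1.45 ± 0.22 (adjusted p = 3.9e-06) and TBR1, a deep-layer factor, by 0.74 ± 0.23 (adjusted p = 0.009) on the log2 scale. All 4 N libraries lay above both bRG libraries for these 4 genes. Among all protein-coding promoters, all N libraries lay above both bRG libraries at 9.77% and below both at 28.0%. The TBR1 call was lost in the second library series alone (0.46, adjusted p = 0.153) and with the N and bRG libraries alone (0.34, adjusted p = 0.357). The TBR1 call was also lost without the series term (0.49, adjusted p = 0.118) and with replicate numbers added to the fit as a block (0.83, adjusted p = 0.116). Without bRG replicate 1, which leaves 1 bRG library, the TBR1 log2 fold change was 0.69.

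BCL11B and TUBB3, also neuronal markers, did not pass the threshold. BCL11B, the deep-layer factor in the label of the N cells, had a promoter (chromosome 14, 80017120 to 80017948) at 21.8, 23.2, 14.7 and 21.6 CPM in N and 13.5 and 14.9 CPM in bRG, a log2 fold change of 0.44 ± 0.23 (adjusted p = 0.1). N replicate 3 lay between the bRG libraries, and without it the promoter passed at 0.53 (adjusted p = 0.0374). It also passed with loess scaling (0.69, adjusted p = 6.42e-05) and with a filter of 10 CPM in 2 libraries (0.53, adjusted p = 0.00113). TUBB3, a neuronal beta-tubulin, averaged 34.1 ± 8.85 CPM in N and 33.1 CPM in bRG (SD, n = 4 and n = 2; adjusted p = 0.9), and its log2 fold change of 0.04 was -0.04 with DESeq2's size factors, while with loess scaling it passed at 0.24 (adjusted p = 0.0192). The promoters of DCX and NEUROG2 were not analysed here.

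Radial glia markers were lower in N. SOX2, a stem cell factor of the SOXB1 family, had 8.15, 8.63, 11.6 and 9.99 CPM in N and 51.7 and 46.4 CPM in bRG, a log2 fold change of -2.19 ± 0.2 (adjusted p = 2.4e-09). HES1, the main effector of Notch signalling in progenitors, stood at -1.68 ± 0.23, the intermediate filament gene NES at -1.57 ± 0.21, PAX6 at -1.54 ± 0.25 and VIM at -1.08 ± 0.22, all past the threshold. Of markers associated with basal radial glia, SLCO1C1, a thyroid hormone transporter, was lower by a log2 fold change of -3.63 ± 0.31, FAM107A by -2.28 ± 0.24 and the matrix protein gene TNC by -1.64 ± 0.2. SLCO1C1, FAM107A and TNC averaged 8.91, 15.7 and 24.2 CPM in bRG and 9.76, 17.1 and 22.6 CPM in aRG, so their openness was not particular to bRG. Every N library lay below both bRG libraries at these 8 promoters, as at 28.0% of all protein-coding promoters. HOPX, an often used marker of these cells, had 14.8, 13.2, 11.0 and 21.5 CPM in N and 23.2 and 18.5 CPM in bRG and did not pass (-0.52 ± 0.24, adjusted p = 0.069). It passed without N replicate 4, the highest N library, at -0.98 (adjusted p = 0.000893).

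Of 14 promoters of intermediate progenitor genes, 4 (28.6%) were higher and 2 (14.3%) lower in N, against 9.0% and 18.4% of all protein-coding promoters. With replicate numbers added to the fit as a block, 1 was higher and 0 lower. EOMES, the T-box factor of intermediate progenitors, had 31.9, 33.6, 38.9 and 41.5 CPM in N, 83.0 ± 19.8 CPM in bIP (SD, n = 5) and 45.3 and 46.3 CPM in bRG. Every N library lay below both bRG libraries at EOMES. Its fitted N minus bRG log2 fold change, which includes the series term, was -0.05 ± 0.21 (adjusted p = 0.85). NHLH1, a bHLH factor of newborn neurons, was higher in N at 20.6 ± 4.35 CPM, against 29.8 ± 5.35 CPM in bIP and 3.39 CPM in bRG (2.69 ± 0.31, adjusted p = 6.4e-08). NEUROG1, a proneural factor of progenitors, was lower at 15.8 ± 3.36 CPM in N, 39.1 ± 10.1 CPM in bIP and 34.5 CPM in bRG (-0.87 ± 0.21, adjusted p = 0.00082).

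The 12 protein-coding promoters with the smallest p among those higher in N belonged to genes of varied function. The largest log2 fold change among the 12 was at SLC8A1, a sodium-calcium exchanger of the plasma membrane (chromosome 2A, 56738640 to 56740291, at the gene start). It had 28.2, 22.0, 21.4 and 42.7 CPM in N and 0.607 and 1.17 CPM in bRG, a log2 fold change of 5.04 ± 0.38 (adjusted p = 1.8e-10). RASGRF1, an exchange factor that couples calcium to Ras (chromosome 15, 54442248 to 54444133), had 23.5, 23.3, 21.4 and 38.1 CPM in N and 2.33 and 2.76 CPM in bRG, 3.59 ± 0.3 on the log2 scale (adjusted p = 4.6e-10). N replicate 4 was the highest library for both genes, and the lowest N library lay far above the higher bRG library. GRIN1, the obligatory subunit of NMDA receptors (chromosome 9, 107048534 to 107050741), had 27.2, 32.6, 25.2 and 42.6 CPM in N and 3.39 and 2.53 CPM in bRG (3.48 ± 0.3, adjusted p = 6.6e-10).

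Further promoters of this set belonged to surface and secretory proteins. TENM2, a teneurin that binds latrophilins across synapses (chromosome 5, 146740098 to 146741566), had 11.4, 10.7, 9.99 and 13.7 CPM in N and 0.758 and 0.75 CPM in bRG (3.91 ± 0.3). PTPRN, a protein of dense-core vesicles, averaged 34.5 ± 7.82 CPM in N and 2.47 CPM in bRG (3.69 ± 0.28), and EPHA10, an ephrin receptor, 40.7 ± 9.28 CPM in N and 2.54 CPM in bRG (4.14 ± 0.32). The neurotensin receptor gene NTSR1 stood at 15.2 ± 3.74 CPM in N and 1.36 CPM in bRG (3.66 ± 0.3). SLN, which encodes sarcolipin, a small regulator of the calcium pump of the endoplasmic reticulum, was higher by 3.77 ± 0.3, the magnesium transporter gene SLC41A2 by 4.8 ± 0.37 and TMEM130 by 4.38 ± 0.37 on the log2 scale. The region listed for SLC10A1, a bile acid transporter known from liver, lay 968 bp from the gene (4.82 ± 0.39). At all 12 promoters each N library exceeded both bRG libraries, as the rule for naming them required.

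MYT1L, a zinc finger repressor of non-neuronal genes and the last of the 12, differed from the others in its level in intermediate progenitors. Its promoter (chromosome 2A, 18434719 to 18436294) had 47.7, 38.8, 32.8 and 53.9 CPM in N, 45.7 ± 8.64 CPM in bIP (SD, n = 5) and 5.66 and 6.14 CPM in bRG, so bIP lay within the range of N. At NEUROD2 bIP also lay closer to N than to bRG, with 38.6 ± 9.25 CPM in N, 34.0 ± 6.87 CPM in bIP and 5.32 CPM in bRG. SLC8A1 and RASGRF1 lay near the bRG level in bIP, at 2.08 ± 0.389 and 2.47 ± 0.755 CPM. Over all regions at least 2-fold higher in N, the bIP mean stood at a median of 0.33 of the way from bRG to N on the log2 scale (interquartile range 0.07 to 0.7). Over those at least 2-fold lower, it stood at 0.55 of the way (0.29 to 0.74). The bIP group mixes both library series and these positions carry no series correction.

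The 12 protein-coding promoters with the smallest p among those lower in N were also mixed in function. SOX21, a SOXB2 factor of neural progenitors (chromosome 13, 74427536 to 74429273), had 5.61, 7.88, 6.87 and 6.24 CPM in N and 44.2 and 38.6 CPM in bRG, a log2 fold change of -2.55 ± 0.21 (adjusted p = 4.1e-10). VCAM1, a cell adhesion molecule of neural stem cells (chromosome 1, 95850988 to 95852411), had 1.4, 1.56, 1.68 and 0.751 CPM in N and 13.4 and 10.8 CPM in bRG (-3.41 ± 0.28, adjusted p = 3.7e-10). Each bRG library exceeded every N library at both, as the rule for naming them required. The steepest of the 12 was ANGPTL1, a secreted angiopoietin-like protein, at 1.83 ± 0.547 CPM in N and 23.3 CPM in bRG (-4.06 ± 0.33, adjusted p = 4.6e-10). RLBP1, a retinaldehyde-binding protein known from Müller glia of the retina, averaged 0.588 ± 0.153 CPM in N and 6.0 CPM in bRG (-3.82 ± 0.32). DNAH11, an axonemal dynein of motile cilia, had 5.77, 7.07, 4.08 and 2.77 CPM in N and 29.5 and 27.5 CPM in bRG (-2.92 ± 0.23).

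Of these 12, the smallest p belonged to OR5A2, an olfactory receptor gene (chromosome 11, 43337881 to 43339155). It had 3.16, 2.65, 3.46 and 3.66 CPM in N and 40.9 and 35.5 CPM in bRG (-3.71 ± 0.27, adjusted p = 1.1e-10), with 52.6 CPM on average in aRG. SLFN12, MPPED2, A2ML1, KIAA1217, FAP and SLC10A2 completed the set with log2 fold changes of -3.64 to -2.5. FAP encodes a serine protease of activated fibroblasts, A2ML1 a protease inhibitor and SLC10A2 a bile acid transporter known from the ileum. SLC10A2 thus moved opposite to SLC10A1 of the same transporter family, at 1.12 ± 0.424 CPM in N and 9.68 CPM in bRG.

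**Figure D2:**
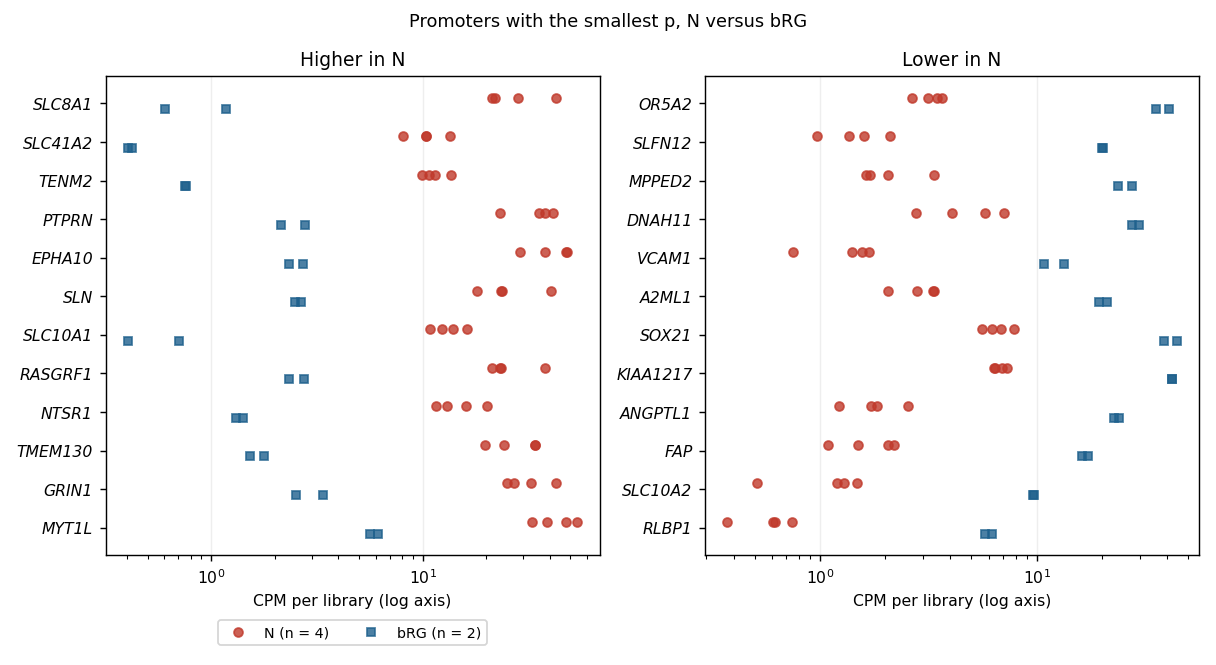
CPM in each library (x axis, log scale) at the 12 protein-coding promoters with the smallest p higher in N (left) and lower in N (right), with N libraries as red circles (n = 4) and bRG libraries as blue squares (n = 2). The groups do not overlap at any of the 24 promoters, which the rule for choosing them required, and SLC8A1 in N lies between 21.4 and 42.7 CPM, against 0.607 and 1.17 CPM in bRG.

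Gene lists for 28 pathways and cell types were then read promoter by promoter, with 1 promoter per gene. Of their 622 genes, 154 had no promoter region in the table and 468 were tested. Among all 10099 protein-coding promoters tested, 2766 (27.4%) passed, of which 909 (9.0%) were higher and 1857 (18.4%) lower in N, and the median log2 fold change was -0.07. Among regions more than 1000 bp from a protein-coding gene, 58.6% passed, 32.6% higher and 26.0% lower. Where a list below has 0 calls in a direction in edgeR's test, DESeq2's test also gave 0 there, and an unadjusted p under 0.05 was reached by 0 promoters in that direction, except 1 higher for choroid plexus and hem and 2 lower, in both respects, for housekeeping genes. Loess scaling gave 2 higher promoters for shared radial glia genes and 1 for basal radial glia genes, against 0 with TMM scaling.

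**Figure D3:**
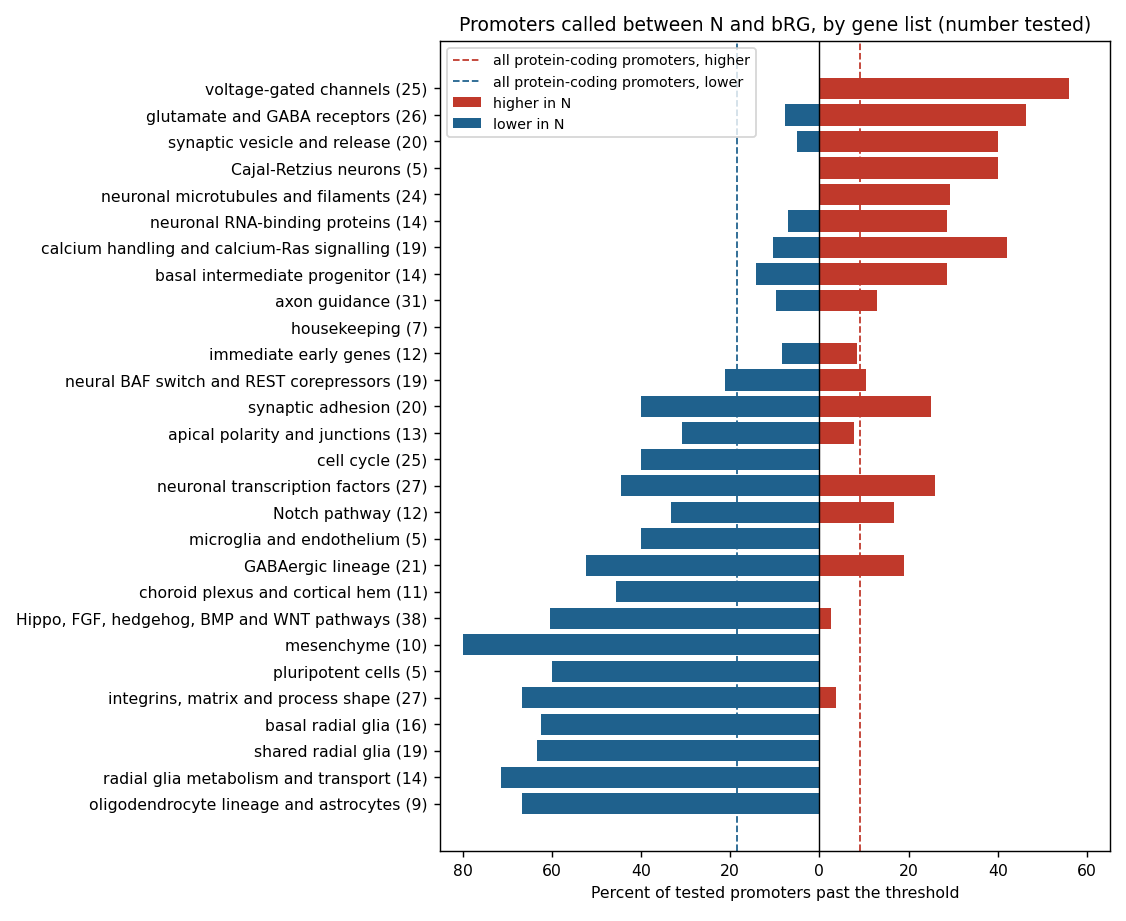
Percent of each list's tested promoters past an adjusted p of 0.05 (x axis), higher in N (red, right) and lower in N (blue, left), with the number tested in brackets and lists ordered by median log2 fold change. Dashed lines mark all protein-coding promoters, 9.0% higher and 18.4% lower, and voltage-gated channels stand at 56.0% higher while shared radial glia genes stand at 63.2% lower.

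Radial glia identity genes were less accessible in N at most of their promoters. Of 19 promoters of shared radial glia genes, 12 were lower and 0 higher, with a median log2 fold change of -1.08. RFX4, a factor of neural tube progenitors, was the lowest, with 4.6, 6.66, 8.5 and 6.48 CPM in N and 44.9 and 39.4 CPM in bRG (-2.52 ± 0.24, adjusted p = 2.6e-09). FABP7, a brain fatty acid-binding protein, PROM1, GLI3, SOX1, SLC1A3 and NR2E1 were also lower, at -1.46 to -0.73. SOX9, PTPRZ1, DBI, EMX2, TTYH1, LHX2 and ID4 did not pass, and LHX2 and EMX2, which pattern the cortex, stood at -0.0 and -0.07. Among the other regions listed with these genes, 84 of 138 (60.9%) were lower and 20 (14.5%) higher. ID4, an inhibitor of bHLH factors, had a promoter that did not pass (0.28, adjusted p = 0.36), while 9 of its 11 regions were lower.

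Promoters associated with basal radial glia followed the same direction. Of 16 tested, 10 were lower and 0 higher (median -0.97). ACSBG1, an acyl-CoA synthetase, had 0.702, 0.951, 0.48 and 0.0938 CPM in N and 5.21 and 2.48 CPM in bRG (-3.64 ± 0.38, adjusted p = 1.5e-08), with N replicate 4 below the 0.141 CPM that 3 counts make there. PDGFD, a growth factor that human radial glia express, had 5.65, 6.59, 4.61 and 3.89 CPM in N and 27.1 and 25.4 CPM in bRG (-2.46 ± 0.22, adjusted p = 1.5e-09). Means of ACSBG1 and PDGFD were 3.84 and 26.3 CPM in bRG and 5.79 and 28.5 CPM in aRG. PTN, ITGB5, MOXD1, LGALS3 and FBXO32 were lower by -1.3 to -0.88, while STAT3, PLAGL1, ETV5 and HS6ST1 stood between -0.12 and 0.04 and did not pass.

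Glial metabolism, adhesion and matrix genes were lower as well. For metabolism and transport, 10 of 14 promoters were lower and 0 higher (median -1.12). BBOX1, an enzyme of carnitine synthesis, had 1.29, 1.7, 2.69 and 1.03 CPM in N and 19.8 and 18.1 CPM in bRG (-3.41 ± 0.3, adjusted p = 9.5e-10). The water channel gene AQP4, the connexin GJA1, the cystine transporter SLC7A11 and glutamine synthetase (GLUL) were lower by -2.11 to -0.65. For integrins, matrix and process shape, 18 of 27 were lower and 1 higher (median -0.95). SDC4, a heparan sulfate proteoglycan, stood at a log2 fold change of -1.99 ± 0.27, the brain proteoglycan gene BCAN -1.61 ± 0.23, and integrin genes ITGB5, ITGB8 and ITGA2 -1.2 to -0.92. LAMB1, a laminin chain, was the exception at 1.37 (adjusted p = 1.6e-05).

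Growth factor and morphogen pathways showed losses at receptors and effectors alike. Of 38 promoters of the Hippo, FGF, hedgehog, BMP and WNT pathways, 23 were lower and 1 higher (median -0.62), and 46.4% of their 308 other regions were lower, against 16.9% higher. Lower receptors included BMPR1B (-1.68 ± 0.22), FGFR2 (-1.13), FGFR1 (-1.12) and SMO (-1.0), the signal transducer of hedgehog. Lower effectors included TCF7L1, a repressor of WNT targets, at 17.2, 23.8, 19.5 and 23.4 CPM in N and 73.7 and 67.0 CPM in bRG (-1.66 ± 0.21, adjusted p = 2.9e-07), and the Hippo kinase gene LATS2 (-1.62 ± 0.23). The ID1 and ID3 genes, direct BMP targets, stood at -0.67 and -0.85, and the FGF targets ETV4, ETV5 and DUSP6 at 0.08, 0.01 and -0.27, not past the threshold. The region listed for the ligand gene WNT5A, 987 bp from it, was the 1 higher, at 26.4, 26.0, 18.0 and 26.2 CPM in N and 0.556 and 1.17 CPM in bRG (5.3 ± 0.51, adjusted p = 3.8e-09).

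Of 12 promoters of the Notch pathway, 4 (33.3%) were lower and 2 (16.7%) higher, against 18.4% and 9.0% of all protein-coding promoters. The list median was -0.48. The lower ones were the targets HES1, HEY2 and NRARP and the fringe enzyme gene LFNG, and the higher ones the ligand genes DLL3 and DLL4. HEY2, a repressor downstream of Notch, had 25.4, 31.9, 18.5 and 22.5 CPM in N and 64.0 and 59.3 CPM in bRG (-1.31 ± 0.24, adjusted p = 3.6e-05). DLL3 had 18.2, 19.1, 10.2 and 19.1 CPM in N and 8.7 and 7.03 CPM in bRG (0.98 ± 0.25, adjusted p = 0.0017), and DLL4 was higher by 0.91 ± 0.25 (adjusted p = 0.0027) on the log2 scale. The core nuclear factor RBPJ (0.1), NUMB (0.05), the effector HEYL (-0.88) and the ligand gene JAG1 (-0.44) did not pass. Without N replicate 2 the lower count was 7, and DLL4 did not pass in a fit of the N and bRG libraries alone (0.61, adjusted p = 0.0723). With a replicate block 2 promoters of the list were lower and 0 higher.

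Cell cycle promoters were lower at some of their members. Of 25 tested, 10 were lower and 0 higher (median -0.32, and -0.22 without bRG replicate 1). With replicate numbers added to the fit as a block the lower count was 1. CCND1, the cyclin of G1, had 5.26, 5.84, 4.66 and 4.46 CPM in N and 20.5 and 19.0 CPM in bRG (-1.96 ± 0.21, adjusted p = 2.8e-08). TYMS, AURKB, CCNE2, PLK1 and the proliferation marker MKI67 stood at -1.21 to -0.76. CDK4, CCNB1, MCM6, PCNA and TOP2A stood between -0.26 and 0.21 and did not pass. Scaling by loess gave 3 higher and 9 lower. Apical polarity genes gave 4 lower (30.8%) and 1 higher (7.69%) of 13 (median -0.3), against 18.4% and 9.0% of all protein-coding promoters. For these genes the block gave 1 lower and 0 higher. CRB2 led the lower ones, at 13.5, 14.9, 14.7 and 16.1 CPM in N and 53.8 and 50.1 CPM in bRG (-1.72 ± 0.21, adjusted p = 1.1e-07). CDH1, a classical cadherin, was higher at 0.93 ± 0.29 (adjusted p = 0.0077), but did not pass without bRG replicate 1 (0.8, adjusted p = 0.0946) or N replicate 4 (0.42, adjusted p = 0.161).

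Promoters of transcription factors used in cortical neurons split in both directions. More were lower than higher in the fit reported, as among all protein-coding promoters (18.4% lower and 9.0% higher). Of 27 tested, 7 (25.9%) were higher and 12 (44.4%) lower in N (median -0.38). The higher ones were the bHLH genes NEUROD1, NEUROD2, NEUROD6 and NHLH2, the zinc finger genes MYT1L and ST18 of 1 family, and TBR1. NHLH2 had 10.1, 9.31, 5.52 and 8.4 CPM in N and 1.36 and 1.5 CPM in bRG (2.5 ± 0.33, adjusted p = 5.4e-07). The lower ones included factors of deep layers (FEZF2, SOX5, FOXP2, ZFPM2), of upper layers (CUX1, CUX2) and others (LMO3, MEF2C, FOXP1, EBF1, EBF3). LMO3, a LIM-only protein, was the lowest at -1.93 (adjusted p = 4.5e-08), and FEZF2, which specifies subcerebral neurons, stood at -0.94 (adjusted p = 0.00025). The counts were 8 higher and 9 lower without N replicate 3, and 5 higher and 5 lower with a replicate block.

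Of 326 other regions listed with these factor genes, 129 (39.6%) were higher and 102 (31.3%) lower. Higher calls also outnumber lower ones among such regions of protein-coding genes at large, at 32.6% and 26.0%. FEZF2 had 17 of 39 regions higher and 11 lower, SOX5 11 of 40 higher and 15 lower, and MYT1L 9 of 11 higher and 0 lower. These 3 genes were picked after their values were seen.

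**Figure D4:**
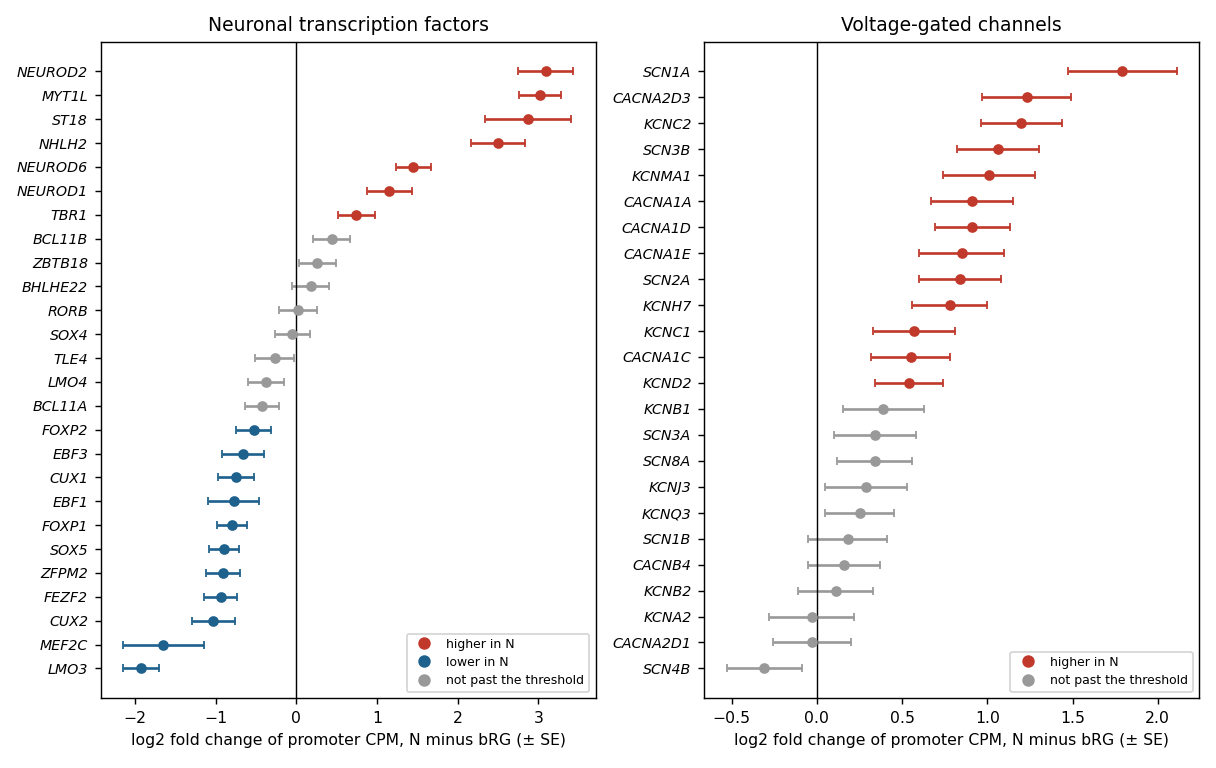
log2 fold change of promoter CPM, N minus bRG, with its SE (x axis), for tested promoters of neuronal transcription factors (left, 26 of 27) and voltage-gated channels (right, 24 of 25), red where higher in N, blue where lower and grey where not past an adjusted p of 0.05. The factors run from NEUROD2 at 3.09 to LMO3 at -1.93, while 13 of the channels shown are higher and 0 lower.

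Genes for excitability were often more accessible at their promoters in N. Of 25 voltage-gated channel promoters, 14 (56.0%) were higher and 0 lower (median 0.55), and their 295 other regions were 42.4% higher and 20.3% lower. SCN1A, a sodium channel subunit, had 7.84, 7.41, 5.04 and 9.24 CPM in N and 1.97 and 2.06 CPM in bRG (1.79 ± 0.32, adjusted p = 2.7e-05). CACNA2D3, an auxiliary calcium channel subunit, had 12.4, 17.0, 11.3 and 18.3 CPM in N and 6.98 and 5.81 CPM in bRG (1.23 ± 0.26, adjusted p = 0.00024). Every N library lay above both bRG libraries at these promoters and at the potassium channel gene KCNC2 (1.2 ± 0.24) and the sodium channel gene SCN3B (1.06 ± 0.24). These were named for their large called changes, which favours such separation. It held at 14 of the 25 promoters of the list, against 9.77% of all protein-coding promoters. The other 10 higher promoters, among them SCN2A, KCNMA1 and the pore-forming calcium channel genes CACNA1A, CACNA1C, CACNA1D and CACNA1E, stood at 0.54 to 1.01. The higher count was 8 without N replicate 4, 9 in a fit of the N and bRG libraries alone, and 21 with loess scaling. With replicate numbers added to the fit as a block it was 3, and SCN1A, CACNA2D3 and KCNC2 did not pass. The median was 0.49 without bRG replicate 2.

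Transmitter receptors had 12 of 26 promoters higher and 2 lower (median 0.46). Beside GRIN1, the NMDA subunits GRIN2B and GRIN2A stood at 1.04 and 0.69 and the AMPA subunit GRIA2 at 1.06. GABBR2, a subunit of the metabotropic GABA-B receptor, averaged 17.2 ± 4.99 CPM in N (SD, n = 4), with N replicate 4 the highest at 24.5 CPM, and had 3.89 and 2.95 CPM in bRG (2.39 ± 0.28, adjusted p = 8.6e-08). GRM8, a presynaptic metabotropic glutamate receptor, and the GABA-A subunit GABRA5 were lower, at -1.06 (adjusted p = 0.00015) and -0.54 (adjusted p = 0.041). The higher count was 7 without N replicate 4 and 7 without bRG replicate 1, and the lower count ranged from 1 to 3 over the leave-one-out fits.

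Of 20 promoters for synaptic vesicles and release, 8 were higher and 1 lower (median 0.36), and 50.4% of their 135 other regions were higher, against 17.8% lower. CPLX1, a complexin that clamps fusion, had 13.8, 17.8, 12.8 and 14.4 CPM in N and 2.93 and 3.47 CPM in bRG (2.47 ± 0.31, adjusted p = 2.4e-07), and UNC13A, a priming factor, 18.9, 19.0, 15.8 and 23.8 CPM in N and 4.15 and 3.28 CPM in bRG (2.41 ± 0.25, adjusted p = 1.2e-08). SYT4, SYN2, RIMS2, RAB3C, SV2A and SNAP25 were higher by 0.57 to 2.18, and SYT1 and STX1A stood at 0.4 and 0.2 and did not pass. The region listed for DNM1, 889 bp from this endocytic dynamin gene, was lower at 0.663, 0.611, 0.721 and 0.188 CPM in N and 2.53 and 1.45 CPM in bRG (-2.15 ± 0.41, adjusted p = 7.5e-05). The higher count was 5 without N replicate 4 or either bRG library.

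For synaptic adhesion, 5 of 20 promoters were higher and 8 lower (median -0.22, and 0.04 with loess scaling), and of their 255 other regions 37.3% were higher and 30.6% lower. The difference between these lists was not tested. TENM2, SLITRK1, CNTN1, CNTN2 and CNTNAP2 were higher, and SLITRK1, an organizer of synapses, had 24.2, 17.8, 24.9 and 35.8 CPM in N and 13.6 and 12.4 CPM in bRG (1.11 ± 0.23, adjusted p = 0.00017). LSAMP, OPCML and NTM, 3 GPI-anchored IgLON proteins, were lower at -1.07, -0.98 and -0.85, as were LRRTM1, LRRTM3, LRRTM4, NCAM1 and NLGN1 at -0.9 to -0.56. LSAMP had 13.6, 16.1, 11.2 and 12.4 CPM in N and 24.4 and 26.9 CPM in bRG. The counts were 2 higher and 9 lower without N replicate 4, 3 and 3 without bRG replicate 1, and 3 and 4 without bRG replicate 2.

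Calcium handling and calcium-Ras genes gave 8 higher and 2 lower of 19. The median log2 fold change was 0.05, and it was -0.03 with DESeq2's size factors. After SLC8A1 and RASGRF1 came the kinase genes CAMK2B, at 18.5, 25.1, 19.5 and 29.7 CPM in N and 4.85 and 4.83 CPM in bRG (2.42 ± 0.28, adjusted p = 5.7e-08), and CAMKV, at 1.99 ± 0.27. HPCA, CAMK2A, RASGRF2 and CALB2 were higher by 0.87 to 1.83. RASGRP1, another Ras exchange factor, and NCALD, a calcium sensor, were lower at -0.74 and -0.69. The lower count was 3 without N replicate 2 or 4 and 1 without bRG replicate 1.

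The cytoskeleton and axon lists held a few strong members among many promoters open in both cell types. Of 24 promoters for microtubules and filaments, 7 were higher and 0 lower, with 2 lower without N replicate 2, and 14 higher and 2 lower with loess scaling. Their median of 0.08 was 0.0 with DESeq2's size factors and -0.08 in the second library series alone. INA, a neuronal intermediate filament, had 22.1, 33.2, 19.7 and 32.9 CPM in N and 5.16 and 3.89 CPM in bRG (2.6 ± 0.27, adjusted p = 1.6e-08), and STMN2, NEFL, ANK3, MAPT, ANK2 and MAP1A were higher by 0.55 to 2.48. The tubulin genes TUBA1A, TUBB2A and TUBB2B and MAP2 and DPYSL3 stood between -0.32 and 0.29 and did not pass.

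In axon guidance, 4 of 31 promoters (12.9%) were higher and 3 (9.68%) lower, against 9.0% and 18.4% of all protein-coding promoters. The median was -0.07, the same as for all protein-coding promoters, and 0.09 with loess scaling. With a replicate block 1 was higher and 0 lower. The netrin receptor genes DCC and UNC5A (1.3 ± 0.23 and 1.16 ± 0.26), SLIT1 (1.24 ± 0.28) and PLXND1 (0.76 ± 0.25) were higher, and NRP1, SEMA6D and ROBO2 lower at -0.65, -0.65 and -0.6. DCC had 17.1, 20.3, 16.5 and 22.2 CPM in N and 8.09 and 9.04 CPM in bRG. UNC5A, picked after its value was seen, had 15 of 18 regions higher and 2 lower. The lower count was 8 without N replicate 2 and 1 without bRG replicate 1, and the higher count 6 without N replicate 3. PLXND1 did not pass without N replicate 4 (0.53, adjusted p = 0.103) or without bRG replicate 2 (0.58, adjusted p = 0.154).

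Regulators of neuronal splicing and of chromatin were read next. Of 14 RNA-binding protein promoters, 4 were higher and 1 lower, with a median of 0.05 that became -0.03 with DESeq2's size factors. SRRM4, the activator of neuronal microexons, had 43.9, 51.4, 32.5 and 48.3 CPM in N and 17.6 and 15.4 CPM in bRG (1.48 ± 0.24, adjusted p = 7.7e-06), and SRRM3, CELF3 and RBFOX3 were higher by 1.27 to 1.81. The lower one was CELF2, at -0.61 (adjusted p = 0.03), a call lost without bRG replicate 1 or 2. RBFOX3 was at 1.09 to 1.75 CPM in N and 0.607 and 0.328 CPM in bRG, and it did not pass without bRG replicate 2 (1.26, adjusted p = 0.0543).

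In the list of the BAF subunit switch and the REST corepressors, 2 of 19 promoters (10.5%) were higher and 4 (21.1%) lower. These shares were near the 9.0% and 18.4% of all protein-coding promoters. The list median was -0.1, and 0.11 with loess scaling. SMARCD3, a subunit of the BAF remodelling complex, had 37.0, 48.9, 24.5 and 39.8 CPM in N and 17.2 and 14.2 CPM in bRG (1.39 ± 0.3, adjusted p = 0.00029), and DPF1, a subunit of the neuronal form, was higher by 0.76 ± 0.21 (adjusted p = 0.003). REST, a repressor of neuronal genes, had 25.0, 33.6, 24.7 and 35.9 CPM in N and 58.5 and 55.4 CPM in bRG (-0.81 ± 0.21, adjusted p = 0.002), and its phosphatase partner gene CTDSP1, HDAC1 and the BAF subunit gene SS18 were lower at -0.87, -0.61 and -0.5. The lower count was 2 without bRG replicate 1.

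Markers of other cell types were read for both groups. Summed promoter CPM over 10 mesenchyme genes was 57.6 to 77.8 in N and 127 and 130.0 in bRG, with 8 lower (2 with a replicate block) and 0 higher in N. Over 9 genes of oligodendrocytes and astrocytes it was 38.0 to 54.6 in N and 82.4 and 91.5 in bRG, with 6 lower, among them GFAP (-2.26 ± 0.3) and SOX10 (-1.26 ± 0.32), and OLIG2, PDGFRA and MBP not past the threshold. Over 11 choroid plexus and hem genes it was 74.9 to 100.0 in N and 121 and 124 in bRG, with 5 lower, and over 5 genes of pluripotent cells 38.3 to 44.3 in N and 66.5 and 67.2 in bRG, with 3 lower. Of defining promoters, COL1A1 stood at 13.6 ± 0.864 CPM in N and 23.8 CPM in bRG, and OTX2 at 1.68 ± 0.453 CPM in N and 7.91 CPM in bRG. FOXC2 stood at 1.43 ± 0.2 CPM in N and 5.4 CPM in bRG. All lay above the floor of 3 counts, which does not show that they were open. Tested regions over 100000 bp from a gene had a median of 1.65 CPM in N and 1.17 CPM in bRG. Over 5 genes of microglia and endothelium the sum was 17.0 to 36.9 in N and 25.5 and 28.0 in bRG, with overlap, and 2 of the 5 promoters were lower (CX3CR1 and CSF1R, the second not past the threshold without N replicate 4 or either bRG library). Without N replicate 2 the lower count was 4, and without N replicate 3 there was 1 higher, as there was for choroid plexus and hem. The part of such cells in the lower promoters of N was not tested, and TTR, AIF1, SPI1, POU5F1 and NANOG were not analysed here.

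GABAergic genes, which mark ventral lineages, gave 11 lower and 4 higher of 21 (median -0.58). SLC32A1, the vesicular GABA transporter, had 10.6, 14.5, 11.6 and 16.1 CPM in N and 3.84 and 3.79 CPM in bRG (2.08 ± 0.28, adjusted p = 7.3e-07), and SST, CALB2 and GAD1 were higher by 0.59 to 1.37. LHX8 and MAF, factors of ventral neurons, were lower at -2.08 ± 0.22 and -1.62 ± 0.21, the neuropeptide gene NPY at -1.75 ± 0.24 and DLX1 at -1.36. DLX2 averaged 17.1 ± 3.12 CPM in N and 22.1 CPM in bRG, DLX5 9.64 ± 1.72 CPM in N and 6.59 CPM in bRG, and GAD2 8.41 ± 0.811 CPM in N and 11.7 CPM in bRG, none past the threshold. The higher count was 2 without bRG replicate 1, and GAD1 did not pass without N replicate 4 or either bRG library (adjusted p of 0.0706 to 0.111).

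Among distal regions the contrasts were steeper. The distal region with the smallest p higher in N lay 32324 bp from AL360020.1 (chromosome 9, 65260836 to 65261758), with 15.4, 13.4, 11.3 and 16.2 CPM in N and 0.202 and 0.141 CPM in bRG, which is 4 and 3 counts. Its fitted log2 fold change was 6.37 ± 0.4 (adjusted p = 5.8e-11). The next 4, near C14orf177, ANP32AP1, AL157366.1 and AC068870.3, stood at 5.37 to 5.9 and at 0.187 to 0.609 CPM in bRG. The distal region with the smallest p lower in N lay 35755 bp from THEM7P (chromosome 11, 21624113 to 21625278), with 1.99, 2.92, 1.49 and 0.751 CPM in N and 32.3 and 30.5 CPM in bRG (-4.66 ± 0.26, adjusted p = 5e-11). The next 4, near SMC4P1, AC044873.1, AC092337.1 and BCL2L14, stood at -4.48 to -3.9. The groups did not overlap at these 10 regions, as the rule for naming them required, and the closest gene is a listed neighbour, not a shown target.

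Regions listed with 1 gene were counted next, beside 32.2% higher and 25.8% lower over all regions. AUTS2, a neurodevelopmental gene that spans a long stretch of the genome, had 127 tested regions, with 51 higher and 43 lower in N (median 0.34), the most in each direction of any gene. CTNND2, which encodes delta-catenin of dendrites, had 30 of 66 regions higher and 13 lower, and SPOCK1, a secreted proteoglycan, 27 of 47 higher and 4 lower (median 1.57). On the other side, DOK5, an adaptor of receptor tyrosine kinases, had 7 of 57 higher and 30 lower (median -0.91), and BMPR1B, the BMP receptor whose promoter was also lower, had 10 of 55 higher and 24 lower (median -0.57). Such counts favour genes with many regions: CTNND2 had 45.5% of its regions higher and 19.7% lower, and BMPR1B 18.2% higher and 43.6% lower.

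**Figure D5:**
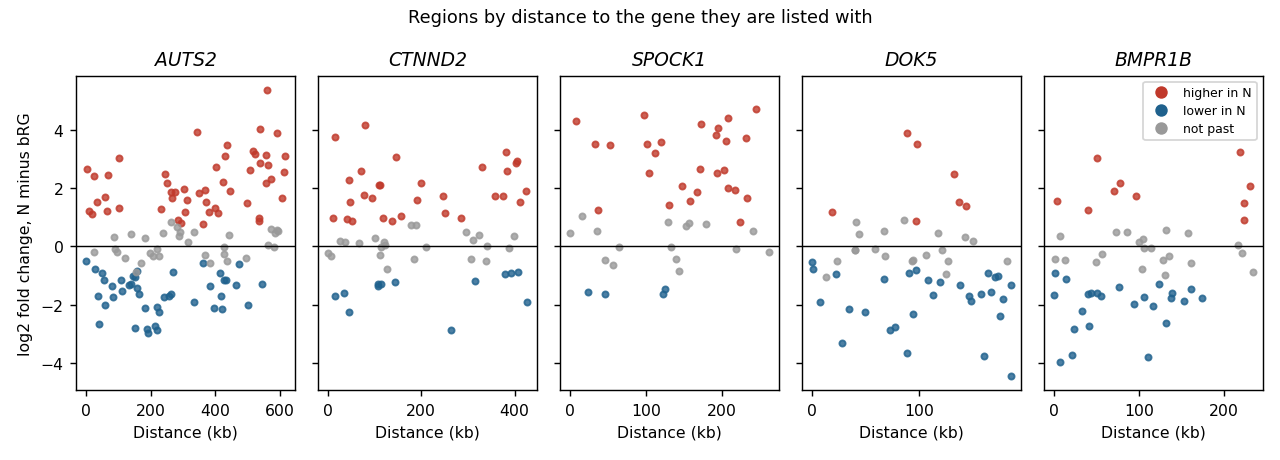
log2 fold change, N minus bRG (y axis), of each tested region listed with AUTS2, CTNND2, SPOCK1, DOK5 and BMPR1B, by distance to the gene in kb (x axis), red where higher in N, blue where lower and grey where not past an adjusted p of 0.05. AUTS2 holds 51 higher and 43 lower regions along its length, SPOCK1 27 higher and 4 lower, and DOK5 7 higher and 30 lower.

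Some list members with at least 10 regions, chosen after their values were seen, had most of them called in 1 direction. The calcium release channel gene RYR2 had 8 of 11 regions higher and 0 lower, and the kainate receptor gene GRIK3 20 of 29 higher and 5 lower. SLCO1C1 had 0 of 10 higher and 8 lower, PAX6 1 of 16 higher and 12 lower, and RFX4 1 of 16 higher and 12 lower. GAS1, a hedgehog coreceptor whose promoter did not pass (-0.34, adjusted p = 0.2), had 9 of 11 regions lower and 1 higher. Neuronal genes also lay on the lower side, with DPYSL2 at 1 of 19 regions higher and 11 lower and OPCML at 5 of 19 higher and 10 lower, and the radial glia gene PTPRZ1 had 8 of 19 higher and 7 lower.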

How the data were processed

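Bulk ATAC-seq libraries of 4 sorted cell types (14 libraries) were used as deposited. The authors deposited raw counts per region and library, not normalized, with gorGor6 region names and a closest gene per region, per the file headers. They also deposited 1 consensus peak set per cell type, whose −log10 q-value by the peak caller was used only to pick a stricter part of each set. The submitters' processing notes name bcl2fastq 2.20.0, MACS2 and the builds hg38 and panTro6. Not given in the sources used here are the aligner, the counting tool, the version of MACS2 and whether reads were shifted to the cut site. Per the labels' protocols, transposed cells went through crosslink reversal as for fixed material, and libraries were size selected.

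Of 218080 regions, the 13823 without a gorilla position and 8 repeats were left out. Region starts were shifted by 1 base to count from 1. The peak sets state no build, and 31813 of 183809 tested regions share an exact start with an N or bRG peak. Gene names were taken from the table, and 12952 of 39300 matched a protein-coding entry of RefSeq's gorilla assembly NHGRI_mGorGor1-v2.1_pri, used for names only.

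The test was edgeR's (version 4.0.16, R 4.3.3): TMM scaling, filterByExpr, a quasi-likelihood fit to all 14 libraries with group means and a library series term (contrast N minus bRG, Benjamini-Hochberg adjustment over 200931 regions, threshold 0.05). SE is the log2 fold change divided by the root of its F statistic. Library totals of 14416471 to 24207798 in N and 19685454 and 20288348 in bRG, multiplied by the TMM factors, make 3 counts 0.117 to 0.204 CPM in N and 0.152 and 0.141 CPM in bRG. Intervals and floors cover counting error only. In data simulated from these means with 1 common dispersion, 100 regions were changed 2-fold and 100 were changed 4-fold among 19998 tested. The fit recovered 30% of the 2-fold and 87% of the 4-fold changes, with 3.31% false calls. Far fewer regions were changed there than the 58.1% that passed in the real data, so these rates need not hold for it.

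Each gene's promoter is its promoter region with the highest mean count. Named are the 12 promoters and 5 distal regions with the smallest p per direction among those whose groups do not overlap, up to 4 called members per list with the largest change, the marker genes, and the 3 genes with the most called regions per direction. The members, lists and tests were chosen with earlier results of these data known. Alternatives were DESeq2's size factors and test, loess offsets, other filters and promoter limits, fits without the series term, of N and bRG alone, of the second series alone and with a replicate block, each library left out, and other peak overlaps. The second series without N replicate 3 was added after seeing the data. Peaks were compared with bedtools 2.31.1. Some list members, counted in their lists, are not reported here by name.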

Additional observations from a re-analysis of the deposited data

Results flagged for a closer look

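Of 162 groups of libraries tested for 1 value far from the others (4 N libraries at 138 named regions and 5 bIP libraries at 24 of them), 11 were flagged, and chance flags about 1 in 20. At the promoter of RASGRF1 N replicate 4 had 38.1 CPM, against 21.4 to 23.5 CPM in the other N libraries. At the distal region near SMC4P1 it was the lowest, with 0.845 CPM against 1.64 to 1.7 CPM. N replicate 3 was the lowest at DLL3 (10.2 CPM, others 18.2 to 19.1), KCNC2 (8.07 CPM, others 10.4 to 10.8), AURKB (6.58 CPM, others 8.26 to 8.49) and WNT5A (18.0 CPM, others 26.0 to 26.4). N replicate 1 was the lowest at FOXC2 (1.13 CPM, others 1.49 to 1.55) and PRDM14 (4.09 CPM, others 5.57 to 5.71), and N replicate 2 the highest at CSPG4 (6.11 CPM, others 4.37 to 4.56). In bIP, replicate 5 was the lowest at SLC8A1 (1.4 CPM, others 2.17 to 2.36) and the highest at EPHA10 (19.1 CPM, others 12.6 to 13.3). All of the N promoters named here passed the threshold in the fits without the library concerned.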

How the results depend on the processing

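Keeping only regions of at least 10 CPM in 2 libraries left 44039 regions to test. Of these, 32008 passed the threshold, among them 18583 distal regions. Loess offsets gave 11854 promoter regions past the threshold. Whether the labels' replicate numbers pair the libraries could not be decided. Same-numbered N and bRG libraries had residual correlations of -0.00948 and -0.0113. Residuals of the 2 bRG libraries, which share a group and a series, are negatives of each other, so the other bRG library gave 0.00948 and 0.0113. With a replicate block the counts were 44832 of all regions, 2734 promoter and 31585 distal regions, and 89 of the named ones. The promoters of PAX6 (-0.82, adjusted p = 0.18), NEUROG1 (-0.42, adjusted p = 0.343), DLL3 (1.02, adjusted p = 0.0765) and DLL4 (1.02, adjusted p = 0.0729) did not pass with it. Transmitter receptors then had 5 higher and 0 lower promoters, and synaptic adhesion 1 higher and 3 lower. Leaving out 1 library gave 94987 to 121876 of all regions, 5858 to 8508 promoter regions, 66871 to 85001 distal regions and 124 to 133 of the named ones, of which 131 passed in the fit reported. Requiring an overlap of 50% of each peak gave 58.4% of N and 57.1% of bRG peaks shared, and a −log10 q of at least 10 gave 63.6% of bRG peaks.

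Log2 fold changes that turned sign all belonged to promoters not past the threshold or, for CSF1R, lost under the block (0.07). TUBB3 was at -0.04 with DESeq2's size factors and with its test, -0.11 without a filter, -0.27 with N and bRG alone, -0.14 in the second series and -0.08 to 0.18 over the leave-one-out fits. LHX6 was at -0.06 with DESeq2's size factors and test, -0.12 without a filter, -0.24 with N and bRG alone, -0.12 in the second series, -0.15 there without N replicate 3, -0.02 under the block and -0.06 to 0.09 over the leave-one-out fits. EOMES was at 0.18 with loess offsets, 0.05 with the 10 CPM filter and 0.32 under the block, and HOPX at 0.05 in the second series without N replicate 3. The causes were not tested. Depth limits regions near 3 counts, such as ACSBG1 in N replicate 4.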

Other observations

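Of 5 promoters of Cajal-Retzius neuron genes, 2 were higher and 0 lower in N (NHLH2 and CALB2), and CALB2 did not pass without bRG replicate 1 (0.72, adjusted p = 0.0681) or with N and bRG libraries alone (0.7, adjusted p = 0.05). RELN, the secreted protein that defines these cells, stood at -0.01 and TP73 at -0.27, and neither passed. Both genes that were higher also belong to other lists. Of 12 immediate early genes, 1 (8.33%) was higher and 1 (8.33%) lower, against 9.0% and 18.4% of all protein-coding promoters. NPAS4, an activity-dependent factor of neurons, was higher, with 19.6, 28.7, 19.1 and 26.0 CPM in N and 8.8 and 6.84 CPM in bRG (1.56 ± 0.24, adjusted p = 4e-06). NR4A2, a nuclear receptor, was lower, with 21.8, 23.6, 28.4 and 32.2 CPM in N and 58.2 and 51.5 CPM in bRG (-0.95 ± 0.2, adjusted p = 0.00023). Without N replicate 3 the higher count was 3, and with loess scaling 4, against 1 in the fit reported. FOS, JUN and EGR1 stood at -0.28, -0.13 and -0.06 and did not pass. Of 7 housekeeping promoters 0 passed in edgeR's test, with 2 lower at an unadjusted p under 0.05, 2 lower in DESeq2's test and 2 lower without N replicate 2, and their median was -0.09, or 0.13 with loess scaling, where 3 were higher and 2 lower.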
